A study of Mus musculus with 54 samples.

Results

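The values below are those of 7 long noncoding RNAs of the brain: Meg3, Rian and Mirg, which lie in a row in the imprinted Dlk1-Dio3 domain, and Malat1, Neat1, Miat and Snhg11. Every probe set that the array's annotation gives to 1 of these genes alone was taken, which made 30 of the 45037 probe sets tested. Meg3 had 11 of them, Malat1 7, Rian 4, and Mirg, Neat1, Miat and Snhg11 2 each.

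The study compared WT mice of the FVB/N strain with PrPmtA and PrPmtB mice, transgenic lines that overexpress a mutant human protein from the prion promoter. RNA of striatum, brainstem/midbrain (below, brainstem) and cerebellum was hybridised to 54 Affymetrix mouse genome arrays (WT 22, PrPmtA 17, PrPmtB 15). Young mice were 6 months old, with 2 arrays in each line and region. Old mice gave 4 WT, 2 PrPmtA and 2 PrPmtB arrays of striatum, 6, 4 and 3 of brainstem and 6, 5 and 4 of cerebellum. The old WT mice were 20, 22, 26 or 28 months old, the old PrPmtA mice 21, 26 or 28 months (striatum 26 and 28 only), and the old PrPmtB mice 20 or 22 months. All values are log2 signals as the authors deposited them, and a difference of 1 is a doubling.

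The codes in the array labels fall into 3 sets, which were taken here as array series and numbered in the order of the codes. Neither the labels nor the paper state what these codes mean or when the arrays were hybridised. All arrays of young mice belong to series 1, and all arrays of old mice to series 2 or 3. Each difference of old from young given here may therefore be one of age or of array series, which cannot be told apart. The tissue labels were borne out by their markers. Means of the striatal neuron markers were 11.58 to 12.14 on the 14 striatal arrays and at most 7.65 elsewhere, and those of the cerebellar neuron markers were at least 13.33 on cerebellar arrays and at most 9.82 elsewhere. Brainstem markers had means of 5.58 to 8.15 on brainstem arrays and at most 4.22 elsewhere. In tissue samples such as these, fewer cells of a type and less RNA in each cell cannot be told apart. A pair of arrays stood apart for these RNAs: PrPmtA brainstem young replicate 1 was the lowest of 6 arrays in 19 of the 30 probe sets and had the highest 3′ over 5′ difference of the Actb control on any array (2.85 against 2.33 or less), and PrPmtB cerebellum old replicate 4 was the lowest of 15 in 14. The second of these was the only array of series 3 in its group, so array and series cannot be told apart there. Without both arrays, the number of probe sets lower with age moved by at most 2 in any of the 9 combinations of line and region. The members' median age difference then went from -1.83 to -2.32 in PrPmtA brainstem and from -1.28 to -1.10 in PrPmtB cerebellum.

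Meg3, Rian and Mirg are transcribed in the same direction from the maternal chromosome, on which the neighbouring coding genes Dlk1, Rtl1 and Dio3 are silent, and carry small nucleolar RNAs and microRNAs inside them. Malat1 and Neat1 are nuclear RNAs, the first found in nuclear speckles, where splicing factors are stored, and the second the scaffold of paraspeckles. Miat (also called Gomafu) is a nuclear RNA of neurons, and Snhg11 hosts a small nucleolar RNA and is made mainly in neurons.

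In the RefSeq annotation of GRCm38.p6, Meg3 lies at chr12:109540996-109571729, Rian at chr12:109603945-109661716 and Mirg at chr12:109734981-109749458. From the start of Meg3 to the end of Mirg, 57 of the 1005 mouse microRNA hairpins in RefSeq's table are found. Of these, 1 lies inside the annotated Meg3, 3 inside Rian and 10 inside Mirg. Some of their mature forms are given to show what these transcripts carry, with the seed (bases 2 to 8) in capitals. The first pair comes from Meg3, the next from Rian, and the others from Mirg, where miR-453 and miR-496a-5p have the same seed.
miR-770-5p: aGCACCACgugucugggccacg
miR-770-3p: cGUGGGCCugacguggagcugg
miR-341-3p: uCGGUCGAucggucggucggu
miR-370-3p: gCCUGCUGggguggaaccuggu
miR-453: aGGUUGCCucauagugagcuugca
miR-496a-5p: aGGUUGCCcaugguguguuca
miR-154-5p: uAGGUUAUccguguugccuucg
miR-377-3p: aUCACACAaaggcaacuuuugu
miR-409-3p: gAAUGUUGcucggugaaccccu
miR-410-3p: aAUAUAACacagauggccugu
The arrays measured the long transcripts and not these microRNAs.

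All 11 probe sets of Meg3 fell with age in brainstem in each of the 3 lines, with a called difference between -0.85 and -2.82. Averaged over the lines, 26 of the 30 probe sets of the 7 RNAs were lower in old brainstem and none was higher (limma, Benjamini-Hochberg at 0.05), where 17.1% of all probe sets were lower and 13.8% higher. Their median difference was -1.75, and that of all probe sets -0.02. In striatum 21 were lower and none higher, with a median of -0.82, against 39.3% lower and 13% higher among all probe sets. In cerebellum 22 were lower and none higher, with a median of -0.94, against 41.5% and 15%.

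**Figure D1:**
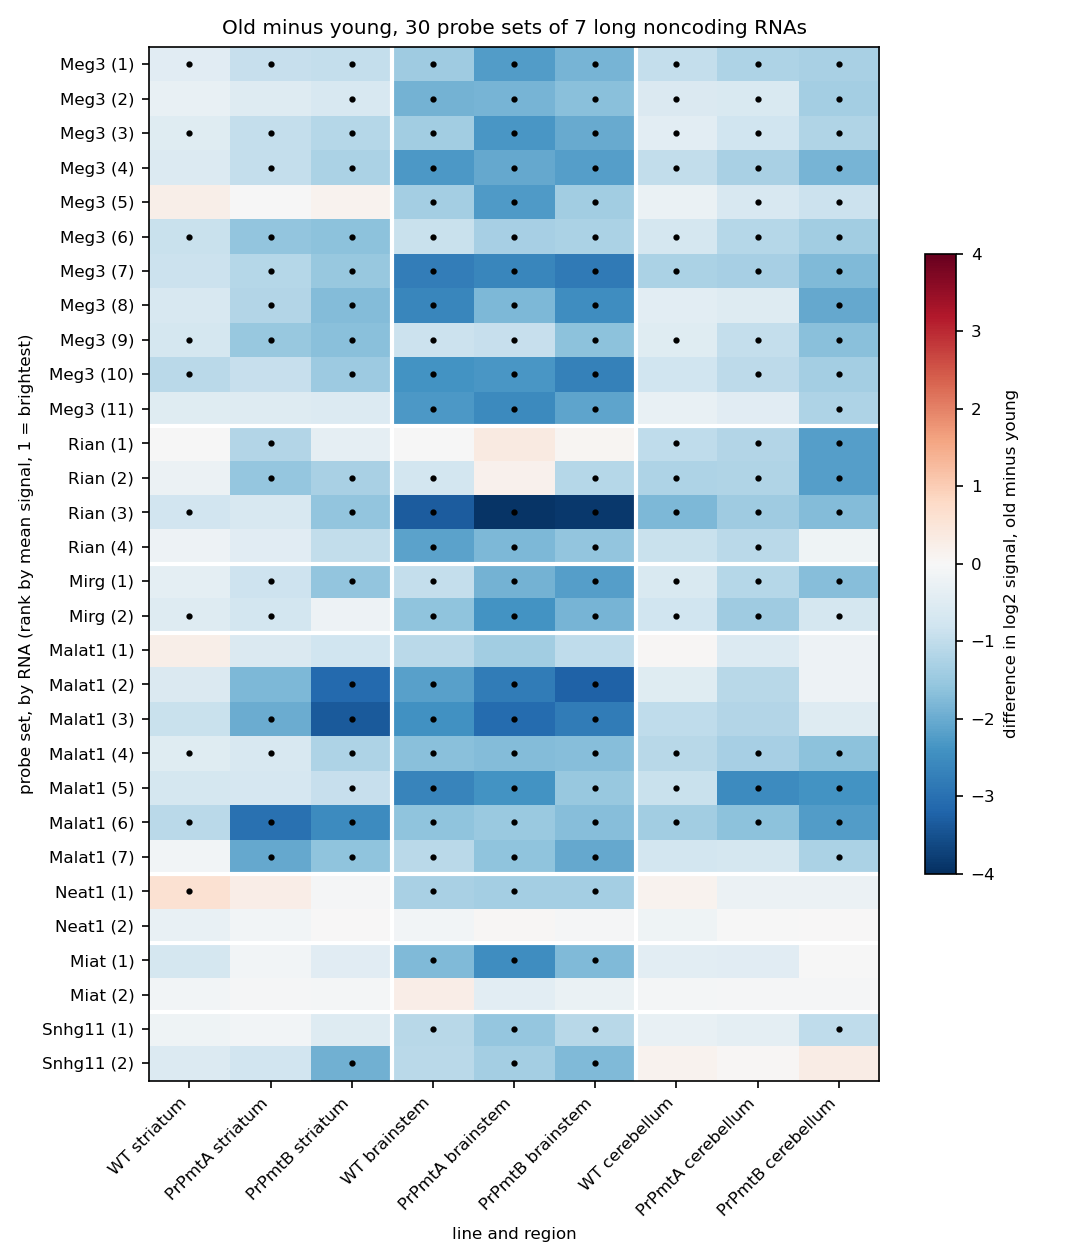
Difference in log2 signal between old and young mice for each of the 30 probe sets (rows, by RNA and rank of mean signal) in each line and region (columns). Blue is lower in old mice, red is higher, and a dot marks a call by limma with nestedF at a false discovery rate of 0.05. The brainstem columns are the darkest for most RNAs, and the brightest probe set of Malat1 and the dim ones of Neat1 and Miat hold no dot.

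Line by line, the calls were made over the 9 combinations together (decideTests, nestedF), so a call can stand beside an adjusted p above 0.05 for the single comparison. In WT brainstem 25 of the 30 were called lower, where 31.2% of all probe sets were lower and 10.6% higher. PrPmtA brainstem also had 25, beside shares of 10.1% and 10.2%. PrPmtB brainstem had 26, beside shares of 8.55% and 8.25%. With each comparison called separately, the counts in WT, PrPmtA and PrPmtB brainstem were 23, 21 and 20. Of all 45037 probe sets, 14349, 6239 and 3571 were then called in either direction. None was higher in brainstem, and each of the 7 RNAs had a lower probe set there in every line. For Neat1 and Miat this was 1 of 2 probe sets. An RNA with more probe sets has more chances of a call, and the share of all genes with such a call was not counted.

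In striatum 9 were lower in WT, 15 in PrPmtA and 19 in PrPmtB mice. With each comparison called separately, these counts were 3, 5 and 13. The 3 in WT striatum include the dim probe set of Neat1, which lies near the low end of the scale. Of all probe sets, WT striatum had 33.6% lower and 9.07% higher, so that its count of members was near the background. After quantile normalisation of the arrays, 10 members were lower there, beside 13.7% of all probe sets. For PrPmtA striatum these shares were 25.6% and 7.07%, and for PrPmtB striatum 29.9% and 8.95%. Without WT striatum young replicate 1 or without WT striatum old replicate 3, calls of either direction in WT striatum went from 10 to 3, and without PrPmtA striatum young replicate 1 those in PrPmtA striatum went from 15 to 9. In cerebellum 15 were lower in WT, 18 in PrPmtA and 21 in PrPmtB mice, and 8, 12 and 16 with separate calls. Of all probe sets, WT cerebellum had 35.6% lower and 10.8% higher. For PrPmtA cerebellum these shares were 27.8% and 9.7%, and for PrPmtB cerebellum 20.8% and 6.98%. Without WT cerebellum young replicate 1, WT cerebellum had 8 calls. The only probe set called higher anywhere was the bright one of Neat1, in WT striatum, and it was not called there after quantile normalisation.

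Across all 9 combinations, 6 probe sets were lower in each, 4 of Meg3 and 2 of Malat1. Over all probe sets this held for 0.706%, or 318. The number of members lower in all 9 was 2 when each comparison was called separately and 3 with each array centred on its median. Of the 270 differences of 30 probe sets in 9 combinations, 253 were below 0. The median difference of all probe sets was itself between -0.098 (WT striatum) and 0.0085 (PrPmtA brainstem). These 270 values share arrays and genes, and the share of all probe sets below 0 was not counted.

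Meg3 is an RNA reported to act on chromatin and on p53 signalling. Its brightest probe set, whose name carries the suffix for probes that may also match other sequences, ran in brainstem from 12.04 to 12.30 with a median of 12.17 on the 6 young arrays. On the 13 old arrays it ran from 9.78 to 11.04 with a median of 10.32. Every old array was below every young one in brainstem, and the same was true in striatum and cerebellum. The share of all probe sets without overlap between the ages was not counted, here or below.

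In striatum that probe set was at 12.20 to 12.77 (median 12.48) in young and 11.49 to 12.14 (median 11.77) in old mice. In cerebellum it was at 11.86 to 12.17 (median 12.08) in young and 10.49 to 11.26 (median 10.88) in old mice. Averaged over lines, it was 3.57-fold lower in old brainstem (log2 -1.84, SE 0.10, adjusted p = 4.45e-16 from limma), 1.72-fold lower in striatum (log2 -0.78, SE 0.12, adjusted p = 5.53e-07) and 2.24-fold lower in cerebellum (log2 -1.16, SE 0.10, adjusted p = 3.46e-11). The age difference was larger in brainstem than in striatum by 1.06 (SE 0.16, adjusted p = 6.42e-06, limma) and larger than in cerebellum by a log2 difference of -0.67 (SE 0.15, adjusted p = 0.00152). The WT difference in brainstem was -1.42, that of PrPmtA -2.24 and that of PrPmtB -1.85, and whether these differ from each other was not tested.

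The other 10 probe sets of Meg3 fell in brainstem by between -1.14 and -2.73, averaged over lines. The probe sets lower in all 9 combinations were the brightest, the third (striatum -0.85, brainstem -1.91, cerebellum -0.80), the sixth (-1.36, -1.17 and -1.08) and the ninth (-1.30, -1.14 and -1.05). The dimmest of the 11 went in brainstem from 9.11 to 9.50 (median 9.29) to 6.19 to 7.65 (median 6.94), with no overlap, a difference of -2.32 (SE 0.20). By contrast, the fifth brightest was lower in brainstem (-1.67, SE 0.18) but stood at 0.11 (SE 0.20, adjusted p = 0.658, limma) in striatum, where its 6 young arrays at 10.56 to 10.93 and its 8 old arrays at 10.55 to 11.13 overlapped. In striatum these probe sets of 1 RNA gave unlike readings. Over the 18 group means, Pearson's r between Meg3 probe sets ran from 0.29 to 0.99 with a median of 0.80, as a description of pairs that share their arrays.

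The start of Meg3 is shown because its window holds several classical promoter motifs. Its part in the age differences of Meg3, Rian and Mirg was not tested. RefSeq's window of 250 bases before and 50 after the start site (GRCm38.p6, chr12:109540746-109541045, plus strand) has in capitals a CCAAT box (CCAAT), a full cyclic AMP response element (TGACGTCA, which contains the shorter TGACG) and overlapping matches on both strands to the TATA box (TATAAA). The Malat1 window (chr19:5802623-5802922, minus strand) is printed for contrast, with its 3 matches to TGACG in capitals.
Meg3: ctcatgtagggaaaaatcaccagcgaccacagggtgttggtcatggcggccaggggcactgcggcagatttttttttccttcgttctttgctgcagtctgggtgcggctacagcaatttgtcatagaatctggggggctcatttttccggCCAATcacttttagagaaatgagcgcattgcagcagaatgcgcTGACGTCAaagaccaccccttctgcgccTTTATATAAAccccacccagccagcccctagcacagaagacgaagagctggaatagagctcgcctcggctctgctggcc
Malat1: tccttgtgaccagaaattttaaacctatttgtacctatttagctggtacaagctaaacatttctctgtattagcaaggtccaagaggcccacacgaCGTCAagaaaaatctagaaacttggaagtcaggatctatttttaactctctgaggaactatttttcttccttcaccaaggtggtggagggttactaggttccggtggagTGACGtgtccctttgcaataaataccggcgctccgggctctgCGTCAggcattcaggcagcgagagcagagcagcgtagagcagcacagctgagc
On either strand, TGACGTCA was found in 1.79% of all 32851 RefSeq promoter windows, TGACG in 20.8%, TATAAA in 13.6% and CCAAT in 37.4%. Among the windows of the genes studied, the full element and the TATA box were found at the first Meg3 start alone, and a CCAAT box there and at Mirg. No window of Neat1 was used here. These matches are letters in a window, and no binding was measured.

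Rian, the middle gene of the row and a host of many C/D small nucleolar RNAs, gave readings that differed between its probe sets. Its brightest probe set ran in brainstem from 8.44 to 10.24 with a median of 9.80 on young arrays and from 9.17 to 10.35 with a median of 9.82 on old ones. The third brightest ran there from 7.88 to 8.43 (median 8.13) in young and from 3.8 to 5.56 (median 4.13) in old mice. The first overlapped between the ages in brainstem, whereas the other did not.

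The third probe set of Rian was 12.95-fold lower in old brainstem (log2 -3.69, SE 0.25, adjusted p = 2.92e-14, limma), the strongest difference of the 30. The brightest was at 0.14 there (SE 0.25, adjusted p = 0.713), and no line was called. In cerebellum the brightest was lower by a log2 of -1.46 (SE 0.24, adjusted p = 7e-06), going from a young median of 10.16 to an old median of 8.54 with overlap. The dimmest probe set of Rian fell in brainstem by -1.84 (SE 0.30, adjusted p = 8.22e-06), and the second stood at -0.57 (SE 0.23, adjusted p = 0.0611). The low young value of 8.44 was that of PrPmtA brainstem young replicate 1. Without the 2 arrays that stood apart, the brightest was at -0.12 in brainstem (adjusted p = 0.74) and the second became lower there (-0.86, adjusted p = 0.00267).

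Mirg, the last gene of the row and the host of a group of microRNAs, fell in both probe sets. The brighter ran in brainstem from 7.48 to 7.92 (median 7.80) in young and from 5.15 to 7.39 (median 6.15) in old mice, without overlap. The difference was -1.68 in brainstem (SE 0.20, adjusted p = 2.62e-08, limma), -1.16 in cerebellum (SE 0.20, adjusted p = 8.29e-06) and -0.92 in striatum (SE 0.22, adjusted p = 0.000667). The dimmer probe set had -1.95, -0.97 and -0.49 in the same order of regions.

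The coding gene before Meg3 moved the other way in brainstem. Dlk1, a membrane protein of the Notch ligand type that is expressed from the paternal chromosome, had a pair of probe sets, which rose in old brainstem by 0.73 (SE 0.24, adjusted p = 0.0172, limma) and 1.75 (SE 0.24, adjusted p = 3.98e-07). In cerebellum they stood at 0.10 and -0.14, and in striatum the brighter was at 1.14 (SE 0.26, adjusted p = 0.000348) and the dimmer at 0.34 (adjusted p = 0.31). Among the coding genes of the domain and its flanks, 12 of 16 listed had a probe set of their own. Of their brightest probe sets, none was lower and 5 were higher in WT brainstem, none and 2 in PrPmtA and none in either direction in PrPmtB brainstem. Of all probe sets, 10.6%, 10.2% and 8.25% were higher there in the same order of lines. Higher calls were not confined to brainstem. In striatum 2, 3 and 3 were higher (9.07%, 7.07% and 8.95% of all probe sets). In cerebellum 3, 3 and 4 were higher (10.8%, 9.7% and 6.98%). In WT striatum and in WT cerebellum 1 was lower. Rtl1 and Dio3 are not among those measured.

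**Figure D2:**
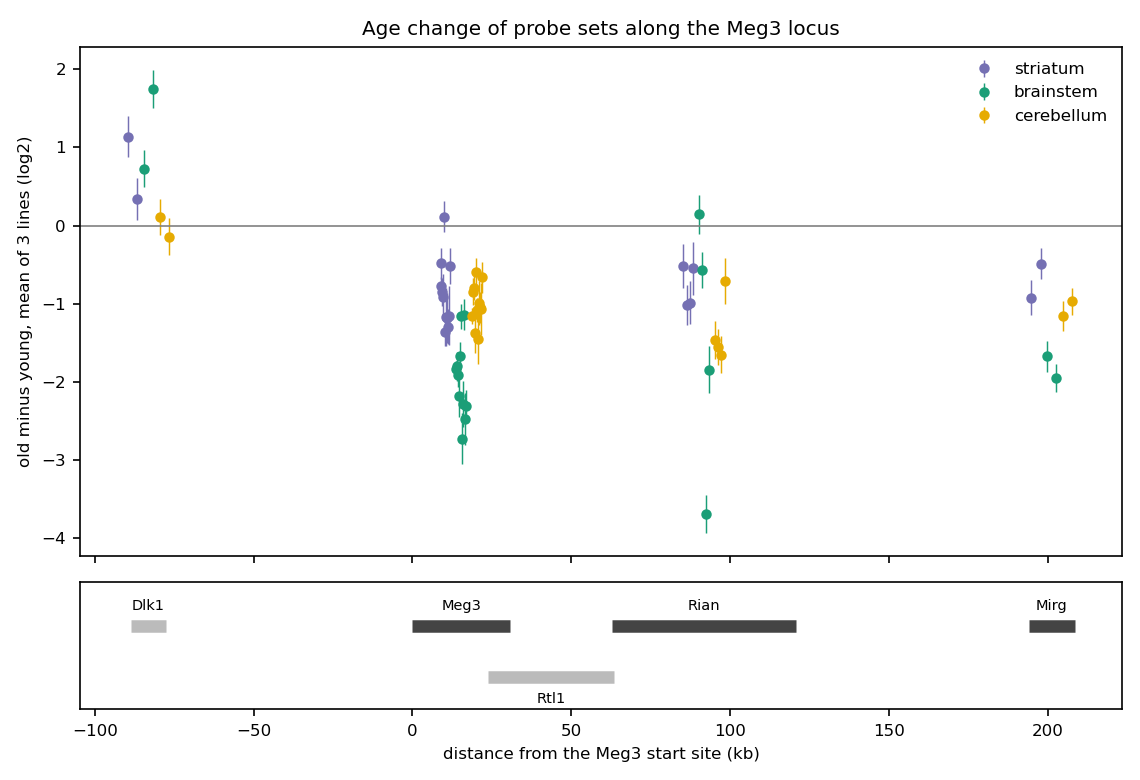
Age change (log2, old minus young, mean of the 3 lines, bars SE) of every probe set of Dlk1, Meg3, Rian and Mirg, placed at the middle of its gene by distance from the Meg3 start in kb, with the annotated genes drawn below. Brainstem points of Meg3 and Mirg lie between -1.14 and -2.73, those of Rian spread from 0.14 to -3.69, and those of Dlk1 lie above 0.

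Malat1, an abundant RNA of nuclear speckles, also fell with age. Its brightest probe set, whose suffix marks probes shared between transcripts, ran in striatum from 11.21 to 12.52 (median 11.75) in young and from 11.23 to 11.83 (median 11.45) in old mice, and in cerebellum medians were 11.26 and 11.28. In brainstem its young arrays ran from 9.44 to 12.49 (median 11.64) and its old arrays from 8.26 to 11.83 (median 10.23). The ages overlapped in all 3 regions, and it was called in none of the 9 combinations. Averaged over lines it was lower in brainstem, at -1.16 (SE 0.41, adjusted p = 0.0311, limma), and stood at -0.38 in striatum (adjusted p = 0.516) and -0.24 in cerebellum (adjusted p = 0.64).

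The fourth brightest probe set of Malat1 varied less among young arrays. It ran in brainstem from 8.91 to 9.09 (median 9.04) in young and from 6.93 to 7.69 (median 7.28) in old mice, with no overlap. It was lower there by -1.70 (SE 0.15, adjusted p = 2.08e-11, limma), in cerebellum by -1.35 (SE 0.14, adjusted p = 3.34e-09) and in striatum by -0.78 (SE 0.16, adjusted p = 0.000108). The sixth fell in striatum from a young median of 7.06 to an old median of 4.78, with overlap, a log2 difference of -2.19 (SE 0.37, adjusted p = 3.79e-06). These 2 were the Malat1 probe sets lower in all 9 combinations.

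The second and the third probe set of Malat1 were lower in brainstem by -2.74 and -2.77, and by -1.83 and -2.08 in striatum, but stood at -0.60 (adjusted p = 0.319, limma) and -0.89 (adjusted p = 0.0934) in cerebellum. Without the 2 arrays that stood apart, both were lower in brainstem by more (-3.24 and -3.27). The SD of these 2 over the 54 arrays, 1.48 and 1.44, was exceeded by that of the bright Miat probe set (1.93) alone among the 30. The dimmest Malat1 probe set fell in all 3 regions, by -1.25 in striatum, -1.59 in brainstem and -0.90 in cerebellum.

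Neat1 lies 22.0 kb from Malat1 on chromosome 19 and was highest in brainstem. Its bright probe set ran from 10.79 to 11.31 (median 11.15) in young brainstem, from 9.03 to 9.59 (median 9.32) in young striatum and from 8.22 to 9.46 (median 8.90) in young cerebellum. In old brainstem it ran from 9.37 to 10.32 (median 9.77), below every young array. The difference there was -1.33 (SE 0.14, adjusted p = 2.22e-09, limma), and was between -1.28 and -1.35 in the 3 lines. The striatal difference was 0.28 (SE 0.16, adjusted p = 0.144), and the cerebellar one -0.11 (SE 0.14, adjusted p = 0.52). In WT striatum alone it was higher by 0.62 (SE 0.25, adjusted p = 0.0456), a call that was lost after quantile normalisation.

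The dim probe set of Neat1 had a mean of 3.01, below the median of all probe sets' mean signals (3.55), and an SD of 0.12 over all arrays. It was called by nestedF in none of the 9 combinations, and averaged over lines it stood at -0.14 in striatum (adjusted p = 0.0448, limma). In WT striatum it stood at -0.30 (SE 0.09, adjusted p = 0.00624, limma), which was a call when each comparison was called separately.

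Miat differed most between regions. Its bright probe set ran from 9.56 to 9.94 (median 9.84) in young brainstem, from 7.01 to 8.18 (median 7.21) in young striatum and from 4.60 to 4.64 (median 4.62) in young cerebellum. The ranges did not meet, and brainstem exceeded cerebellum by 5.2 (SE 0.26, adjusted p = 5.39e-19, limma) and striatum exceeded cerebellum by 2.72 (SE 0.26, adjusted p = 3.59e-11). In old brainstem it ran from 6.53 to 8.94 (median 7.87), which is 4.00-fold lower on average (log2 -2.0, SE 0.23, adjusted p = 7.04e-09). In striatum the difference was -0.42 (adjusted p = 0.164) and in cerebellum -0.30 (adjusted p = 0.253). The dim probe set had a mean of 2.19 and was called in no combination.

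Snhg11 was highest in brainstem, where its bright probe set ran from 12.23 to 12.62 (median 12.46) on young and from 10.50 to 12.13 (median 11.18) on old arrays without overlap. It was lower there by -1.25 (SE 0.18, adjusted p = 4.36e-07, limma), in cerebellum by -0.57 (SE 0.17, adjusted p = 0.00418), and stood at -0.27 in striatum (SE 0.19, adjusted p = 0.257). Its dim probe set was lower in brainstem (-1.40, SE 0.33, adjusted p = 0.00122) and striatum (-1.08, SE 0.37, adjusted p = 0.0138) and stood at 0.16 in cerebellum (adjusted p = 0.698). The old brainstem maximum of 12.13 was WT brainstem old replicate 4, and the other 5 WT arrays lay between 11.13 and 11.39.

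**Figure D3:**
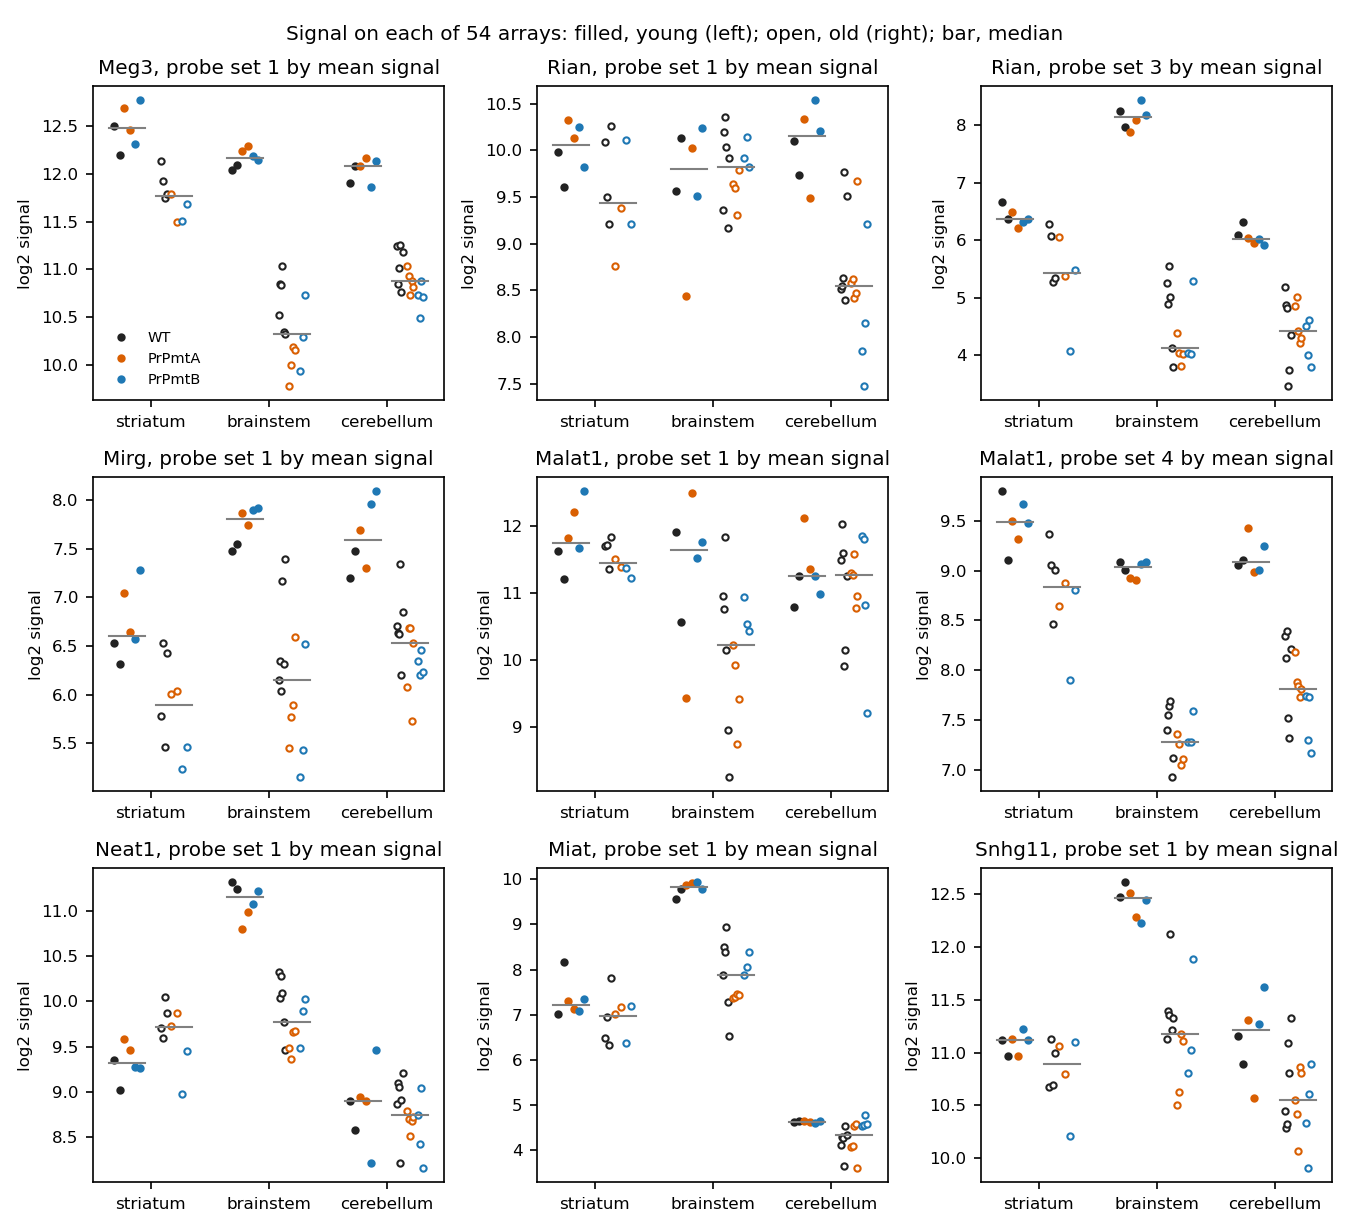
Log2 signal on each of the 54 arrays for 9 probe sets, with young arrays filled and old arrays open, coloured by line, and a bar at the median of each region and age. In brainstem old arrays lie below all young ones for Meg3, the third probe set of Rian, Mirg, the fourth of Malat1, Neat1, Miat and Snhg11, while the brightest probe sets of Rian and Malat1 overlap.

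In young mice the regions already differed. Of the 30 probe sets, 10 were higher and 2 lower in striatum than in cerebellum (background 35.8% and 19.2%), and 15 were higher and 1 lower in brainstem than in cerebellum (16% and 30.2%). Between striatum and brainstem, 6 were higher and 12 lower in striatum (40.9% and 18.8%). Brainstem was the highest region for Neat1, Miat, Snhg11 and the third probe set of Rian, which exceeded cerebellum by 2.27, 5.2, 1.29 and 2.07. For the brightest probe set of Meg3, striatum was highest, by 0.45 over cerebellum (adjusted p = 0.00204, limma) and 0.32 over brainstem (adjusted p = 0.02), while brainstem and cerebellum differed by 0.13 (SE 0.12, adjusted p = 0.395). The probe sets of Meg3 did not share this order: 3 of the 11 were called higher in striatum than in brainstem and 5 were called lower, among them the fifth at -1.69 and the dimmest at -1.12. Mirg was lowest in striatum, by -0.89 against cerebellum and -1.01 against brainstem. No pair of regions was called different for the brightest probe sets of Rian and Malat1 (adjusted p from 0.253 to 0.985).

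The age difference depended on region for some probe sets. It differed between brainstem and cerebellum for 18 of 30 (28.2% of all probe sets), between striatum and brainstem for 17 (33.3%) and between striatum and cerebellum for 6 (13.6%). The last count fell to 1 without WT striatum young replicate 2. With old arrays of the third series only, these counts were 7, 12 and 3. Neat1 and Miat fell in brainstem by -1.21 and -1.70 more than in cerebellum, and for the brightest probe set of Rian the difference ran the other way, at 1.60 (SE 0.35, adjusted p = 0.00178, limma).

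The brightest and the dimmest probe set of the same RNA were then set against each other, as the difference between their log2 signals and its change with age. Averaged over all 9 combinations, this change was called for 3 of the 7 RNAs, against 52.7% of the 9010 genes with at least 2 probe sets. For Malat1 the gap widened by 0.66 (SE 0.14, adjusted p = 0.000158, limma), where the dimmest of its 7 probe sets lost more signal than the brightest. This call rests on the choice of those probe sets, since the mean of the brighter probe sets minus that of the dimmer ones changed by 0.17 for Malat1 (adjusted p = 0.496). By that measure Meg3 and Rian were called instead. For Neat1 it narrowed, at -0.31 (SE 0.09, adjusted p = 0.00517), and for Miat at -0.82 (SE 0.17, adjusted p = 0.000112), where the dim probe sets were near the low end of the scale. For Meg3 the change was -0.09 (SE 0.12, adjusted p = 0.546), for Mirg -0.12 (SE 0.11), for Snhg11 0.07 (SE 0.25) and for Rian 0.42 (SE 0.22, adjusted p = 0.11).

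Region by region, chosen after the averages were seen, Rian stood out in brainstem, where the gap between brightest and dimmest widened by 1.99 (SE 0.38, adjusted p = 7.18e-05, limma). Both WT and PrPmtA brainstem showed 2.14 and PrPmtB brainstem 1.67. The average was 2.04 without the 2 arrays that stood apart. Without them Rian in cerebellum (-0.91) and Snhg11 in striatum (0.81) and cerebellum (-0.92) were called as well. Neat1 in brainstem was at -1.29 (SE 0.16, adjusted p = 4.14e-08) and Miat at -1.86 (SE 0.29, adjusted p = 3.48e-06). Their dim probe sets were near the low end of the scale. These gaps therefore mostly repeat the change of the bright ones there, at -1.33 and -2.0. The Malat1 gap widened in striatum by 0.87 (SE 0.26, adjusted p = 0.00967) and in cerebellum by 0.67 (SE 0.23, adjusted p = 0.0218). In striatum the Neat1 gap was called in the opposite direction, at 0.41 (SE 0.17, adjusted p = 0.0631). Meg3 was called in brainstem (0.48) and, in the other direction, in cerebellum (-0.50). The backgrounds were 37.8% in striatum, 36.5% in brainstem and 39% in cerebellum.

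**Figure D4:**
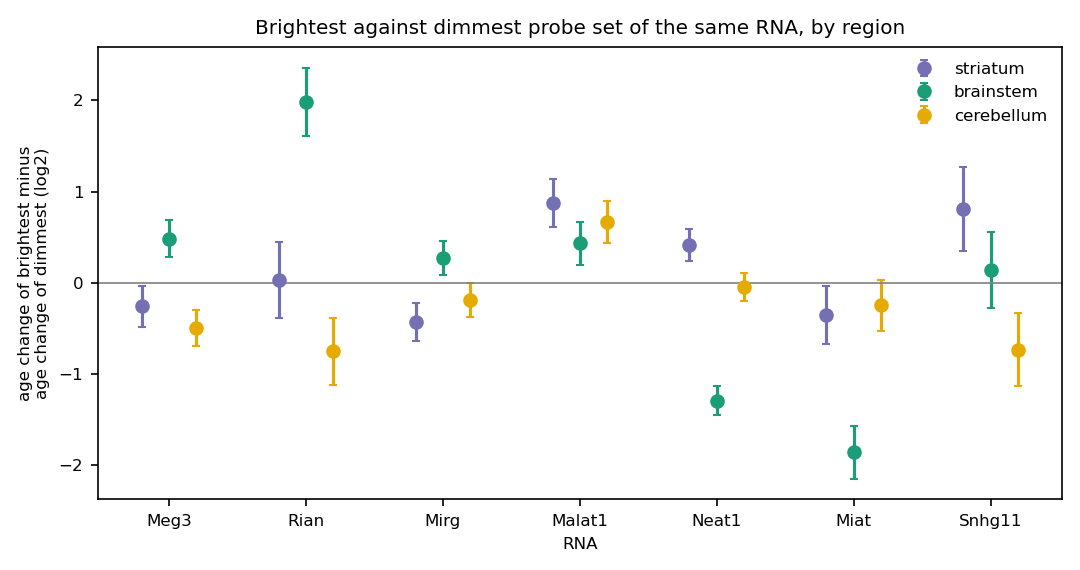
Age change of the brightest probe set minus that of the dimmest one for each RNA, in log2, averaged over the 3 lines within a region, with SE bars. Values above 0 mean that the dim probe set lost more signal. Rian in brainstem is the highest point (1.99) and Miat in brainstem the lowest (-1.86). The dim probe sets of Neat1 and Miat were near the low end of the scale.

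No probe set of the 7 RNAs was called different between the transgenic lines and WT over regions and ages. The counts called by limma were 0 for PrPmtA and 0 for PrPmtB (0.266% and 0.233% of all probe sets), and none of the 30 had an unadjusted p under 0.05 in either. Among all 45037 probe sets, 7328 for PrPmtA and 6385 for PrPmtB were under that limit. In striatum the age change differed from WT for none in PrPmtA and none in PrPmtB mice (0.469% and 0.286%), with 2 probe sets at an unadjusted p under 0.05 in each. Among all probe sets 5211 for PrPmtA and 3207 for PrPmtB were under it, so the members' share was no greater. Within the third array series, the 9 WT arrays set 26 and 28 months against 20 months, and limma called 0% of all probe sets. An unadjusted p under 0.05 was found for 2441 of all 45037 probe sets and for 2 of the 30 members, which are similar shares. Both were of Meg3 (the brightest at -0.38 and the sixth at -0.54, later ages minus 20 months). Each age is 1 array code with 1 array per region, so that regions stand in for replicates and these p-values may be too small. Sex also changes with age among them, from mixed at 20 to male at 26 and female at 28 months.

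Other genes tied to these RNAs were counted in the same way, by the brightest probe set of each. Of 15 nuclear speckle and splicing genes, 10 were lower in WT brainstem, 7 in PrPmtA and 6 in PrPmtB brainstem, and none was higher. In cerebellum 7, 9 and 11 were lower in the same order of lines, and in striatum 6, 5 and 6, with 1 higher in PrPmtB mice. The shares of all probe sets lower in these combinations are those given for the 7 RNAs, such as 31.2% in WT, 10.1% in PrPmtA and 8.55% in PrPmtB brainstem. Prpf4b, a kinase of the spliceosome, was lower in all 9 combinations with a mean of -1.10 (SE 0.09), and Pnn, a protein of nuclear speckles, in 8 with a mean of -0.92 (SE 0.09). Of the splicing factors of the SR family, Srsf1 was lower in 6 (mean -0.56, SE 0.10) and Srsf11 in 7 (mean -0.54, SE 0.06).

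Of 11 paraspeckle protein genes, 5 were lower and 1 higher in WT brainstem, 2 and 2 in PrPmtA and 5 and 1 in PrPmtB brainstem. The WT share was not far from the 31.2% lower and 10.6% higher among all probe sets. In striatum and cerebellum 2 to 4 were lower and at most 1 higher in each line. Taf15, an RNA-binding protein of the FET family, was lower in 6 combinations (mean -1.09, SE 0.17), as was Sfpq, a core paraspeckle protein (mean -0.65, SE 0.10). Hnrnpk was lower in 9 (mean -0.55, SE 0.06), whereas Ewsr1, of the same family as Taf15, was higher in 1 (mean 0.33, SE 0.09).

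Among 4 measured genes of the list of other imprinted noncoding RNAs, 2 were lower in the brainstem of each line and none higher. Snhg14, of the Prader-Willi and Angelman domain, was lower in 5 combinations (mean -0.56, SE 0.09), and Kcnq1ot1 was lower in 3 and higher in 1 (mean -0.31, SE 0.18). Of 16 other snoRNA hosts and long noncoding RNAs, 2 were lower and 4 higher in WT brainstem (31.2% and 10.6% of all probe sets). Elsewhere 1 to 5 were lower and at most 2 higher in each line and region. Sox2ot, transcribed across the Sox2 gene, was lower in 7 combinations (mean -0.71, SE 0.10), Dlx6os1 in 3 (mean -0.47, SE 0.07) and the snoRNA host Snhg6 in 3 (mean -0.37, SE 0.07).

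Of 10 genes of Polycomb repressive complex 2, to which Meg3 has been reported to bind, 1 was lower and 1 higher in WT brainstem, and 1 or 2 were lower and none higher in every other combination. Eed, a core subunit, was lower in all 9 combinations (mean -0.38, SE 0.03). Of 8 genes that maintain imprints, 3 were lower in WT, 2 in PrPmtA and 1 in PrPmtB brainstem, the first a share near the 31.2% of all probe sets, and 1 or 2 in each line of the other regions. Zfp445, a zinc finger protein that keeps imprints methylated, was lower in all 9 (mean -0.68, SE 0.04). The DNA methyltransferase Dnmt3a was lower in 2 (mean -0.45, SE 0.12).

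Markers of cell types moved with age beside these RNAs, and their part in the results was not tested. The shares of all probe sets called in each line and region are those given for the 7 RNAs. In WT brainstem these were 31.2% lower and 10.6% higher. In brainstem 5 of 6 microglial markers were higher in WT, 4 in PrPmtA and 5 in PrPmtB mice, and none was lower. The list's mean ran from 6.67 to 7.31 on young and from 7.98 to 9.37 on old brainstem arrays. Of 6 astrocyte markers, 2 were lower and 2 higher in WT brainstem, and 1 was lower and 3 higher in each transgenic line. Their means were 10.86 to 11.06 on young and 11.14 to 11.59 on old brainstem arrays. The means of these glial lists did not overlap between the ages.

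Of 12 neuronal markers, 5 were lower and 1 higher in WT brainstem, beside 31.2% and 10.6% of all probe sets. In PrPmtA brainstem 4 were lower and 3 higher, and in PrPmtB brainstem 4 and 2. The median of the list's mean was 12.10 on young and 11.97 on old brainstem arrays, with overlap. The 5 oligodendrocyte markers had means of 11.65 to 11.85 on young and 11.60 to 12.12 on old brainstem arrays, and the 5 endothelial ones 6.45 to 6.87 and 4.63 to 7.11. Choroid plexus markers ranged from 5.53 to 9.53 on young and from 5.10 to 8.79 on old brainstem arrays, and none of the 5 was called.

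In cerebellum 5 microglial markers were higher in WT, 3 in PrPmtA and all 6 in PrPmtB mice, and 4 of 5 endothelial markers were higher in each line, with list medians of 1.01, 1.42 and 1.29. Neuronal markers there were higher for 2, 4 and 3 of 12 and lower for none. In striatum 3, 2 and 3 microglial markers were higher, and of the neuronal ones 1, 4 and 3 were higher and 0, 1 and 1 lower.

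The median 3′ over 5′ difference of the Actb control was 1.64 in young and 1.42 in old brainstem, and that of Gapdh -0.32 and -0.28. WT brainstem old replicates 2 and 3 and PrPmtB brainstem old replicates 1 and 2, all of 22 months, stood above the other old brainstem arrays, with Actb at 2.23 to 2.33 and Gapdh at -0.03 to 0.09. PrPmtB striatum old replicate 1 had 2.22 and 0.08. The part of these arrays in the results was not tested.

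The genes whose pattern over the 18 group means was most like that of each RNA's brightest probe set were found by Pearson's r, as a description of means that share arrays. For Meg3 these were Fyco1 (0.98), the fourth probe set of Malat1 (0.98) and Ppp3r1 (0.96). For Miat they were Dzank1, Pcdh15 and Trp53bp1 (all 0.98), for Neat1 Insyn2a (0.96), Deptor and Col11a1 (both 0.95), and for Snhg11 Amy1 (0.96), a gene known as 2610005L07Rik (0.93) and the second probe set of Meg3 (0.93). For Mirg they were Rhobtb3, 4933439C10Rik and Slc44a2 (all 0.95). For Malat1 they were Ankrd12 (0.94), Myt1l and Fam214a (both 0.89), and for Rian Noc4l (0.86), Uba6 (0.85) and Qk (0.84).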

How the data were processed

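RNA of dissected striatum, brainstem/midbrain and cerebellum was labelled from oligo(dT)-primed cDNA and hybridised to Affymetrix mouse genome arrays. The authors deposited log2 signals for 45101 probe sets, background-corrected, normalised over all arrays and summarised. RMA is the method their text gives and GCRMA the one in the labels, and no further normalisation was applied. Array controls (64) were left out. Annotation gave 34945 probe sets 1 gene, 932 several and 9160 none. The target positions of probe sets were not used here. Samples were grouped by line, region and age as the labels state.

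In R 4.3.3 with limma 3.58.1, a mean for each of 18 groups was fitted to all arrays, with calls by nestedF within each family at a false discovery rate of 0.05. Adjusted p-values are Benjamini-Hochberg per comparison over all 45037 probe sets. Averages over lines weight each line equally. The model was tested on simulated data. The members, gene lists and rules were chosen with earlier results of these data known. Given in full were the brightest and dimmest probe set of each RNA and those called alike in all 9 combinations. The fifth of Meg3, the second and the third of Rian and the second and the third of Malat1 were singled out after their values were seen. Of each other list, up to 4 called genes with the largest mean age difference could be named. Labels do not state that replicates are separate animals, so p-values measure the spread between these arrays, which may be technical. The 54 arrays limit the precision. Codes shared by young arrays of different regions correlated between -0.06 and 0.22 in their deviations and were not taken as pairs. Alternatives were quantile normalisation, array-median centring, the brighter probe sets, sex or series terms, third-series old arrays, a random block, a fixed block, separate calls or fits, and leaving out arrays. In the 3 PrPmtA arrays of 28 months, labelled female, Y-linked signal was present.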

Additional observations from a re-analysis of the deposited data

Results flagged for a closer look

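Within groups of 4 to 6 arrays, 180 sets of values were searched for a single array far from the others, and 15 were found. The limit used is a 95% critical value, which chance alone passes in about 1 in 20 groups, and probe sets of 1 array are not independent. Every flagged array but PrPmtA cerebellum old replicate 1 was of series 3. Among old PrPmtB arrays of cerebellum, the others were of series 2, 22 months old and labelled female. Array, series, age and sex label cannot be told apart in that group. PrPmtB cerebellum old replicate 4, of series 3, 20 months and mixed sex label, gave 6 of the 15 flags. It was low for 3 probe sets of Meg3, the fourth at 8.45 (others 9.62 to 9.75), the seventh at 7.40 (8.96 to 9.09) and the tenth at 7.26 (8.83 to 9.05). It was also low for the second and the third of Malat1, at 7.58 (10.45 to 10.73) and 5.89 (8.41 to 8.76), and for the dim one of Snhg11, at 5.37 (6.79 to 7.03).

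PrPmtA cerebellum old replicate 4 was low for the eighth and the ninth probe set of Meg3, at 8.19 (others 8.97 to 9.21) and 7.76 (8.60 to 8.94). WT striatum old replicate 3 was low for the fourth of Meg3, at 10.48 (11.03 to 11.08). PrPmtA cerebellum old replicate 5 was high for the brightest of Rian, at 9.68 (8.42 to 8.62). WT cerebellum old replicate 5 was low for the dim one of Mirg, at 5.16 (5.75 to 6.04).

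PrPmtA brainstem old replicate 3 was low for the third of Malat1, at 4.84 (6.57 to 6.86). WT cerebellum old replicate 4 was low for the bright one of Neat1, at 8.21 (8.86 to 9.22), and PrPmtA cerebellum old replicate 1 was high for the dim one, at 3.25 (2.88 to 2.97). WT brainstem old replicate 4 was high for the bright one of Snhg11, at 12.13 (11.13 to 11.39).

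The age difference differed between regions for the brightest or dimmest probe sets of 6 RNAs, by limma's test of the difference itself. Each value is the age difference in the first region minus that in the second. For the brightest of Meg3 it was 0.38 for striatum against cerebellum (adjusted p = 0.13, called by nestedF), -0.67 for brainstem against cerebellum and 1.06 for striatum against brainstem. For the dimmest of Meg3 it was -1.65 for brainstem against cerebellum and 1.80 for striatum against brainstem.

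The brightest of Rian had 0.94 for striatum against cerebellum (adjusted p = 0.123 from limma) and 1.60 for brainstem against cerebellum, and the dimmest -1.14 for brainstem against cerebellum and 1.29 for striatum against brainstem. The dim one of Mirg had -0.98 for brainstem against cerebellum and 1.46 for striatum against brainstem. In the same order, the bright one of Neat1 had -1.21 and 1.60, that of Miat -1.70 and 1.58, and that of Snhg11 -0.68 and 0.99. The dim one of Snhg11 had -1.24 for striatum against cerebellum (adjusted p = 0.128 from limma) and -1.56 for brainstem against cerebellum.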

How the results depend on the processing

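No called age change of a member probe set and no called change of the bright and dim gap reversed under the alternatives run. The other comparisons were kept as counts of calls alone, so a reversal there was not looked for. With the old arrays of the third series only, the age change differed between striatum and cerebellum for 3 probe sets (6 with all arrays), between brainstem and cerebellum for 7 (18), and the gap of bright and dim probe sets changed for 5 RNAs (3). With each comparison called separately, calls were 4 in WT striatum (10 in the main analysis), 5 in PrPmtA striatum (15), 8 in WT cerebellum (15) and 0 for striatum against cerebellum (6), where the lowest adjusted p of limma was 0.0751. With each array centred on its median, an alternative added after seeing the data, WT striatum had 5. With arrays of a shared code as a random replicate block, WT striatum had 6, and no other count of calls moved by over 1.5 times. With the brighter minus the dimmer probe sets of each gene, the gap was called for 4 RNAs, with Malat1 lost and Meg3 and Rian gained. The cause of these shifts was not tested.

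Leaving out each array in turn gave 3 to 12 calls in WT striatum, 9 to 15 in PrPmtA striatum, 8 to 16 in WT cerebellum, 1 to 6 for striatum against cerebellum, and 0 to 1 for the age change of PrPmtB against WT in striatum, the 1 without WT striatum young replicate 2. Striatum against cerebellum was also reduced without PrPmtA striatum young replicate 2 or PrPmtB striatum young replicate 2 (3 each) and without PrPmtB cerebellum young replicate 2, PrPmtB striatum old replicate 2 or PrPmtA striatum old replicate 2 (2 each). Brainstem calls stayed at 21 to 26 in WT, 20 to 25 in PrPmtA and 23 to 26 in PrPmtB mice.

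After quantile normalisation, 264 of the 270 member differences kept their side of the threshold, and the members' medians ran from -0.56 to -1.90, while the share of all probe sets called lower went to between 7.15% and 15.5%. Of the 30 members, 28 were among the brighter probe sets of the array. Without the 3 arrays of PrPmtA mice of 28 months, 257 kept their side. Fewer of the 270 did so with separate calls (216), separate fits per region (223) and old arrays of the third series only (230).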
